A study of Mus musculus with 2 samples.

Results

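The genes described here encode enzymes of glycolysis and of fructose metabolism. They were taken from the deposited table by symbol, from a list of 9 names, and 6 of the 9 were among the 8551 listed genes. These 6 were Pklr, Khk, Pfkfb1, Pfkm, Aldoa and Aldoc, while Eno1, Pgk1 and Ldha were not listed and have no value. Liver mRNA of 9-week-old male wild type mice and of 9-week-old male db/db mice, both labelled as C57BL/6 in strain background, was profiled with digital gene expression tags, with 1 library per group, called normal liver and db/db liver in the text and normal and diabetic in the figures. The db/db mutation disrupts the leptin receptor in the whole animal, and db/db mice become obese and diabetic. Animals ate chow freely and livers were taken about 3 h into the light cycle. The methods give 12 mice per group, do not say whether their RNA was pooled, and name 2 suppliers without saying which group came from which. No difference between the libraries therefore has a replicate check, and the group cannot be told apart from supplier, pool or library.

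Values are tags of a gene per 1000000 clean tags of its library, which the authors call TPM. From the equal steps of the values, the depth came to 10278531 clean tags in normal liver and 13508232 in db/db liver, of which 37.1% and 44.4% were on listed genes. Among hepatocyte markers 6 of 7 were listed, and their summed level was 9247 TPM in normal liver and 9427 TPM in db/db liver, most of it Alb. The others went both ways, with Cps1 (log2 ratio 1.28) and Asgr1 (0.93) higher and Hnf4a (-1.07) lower by at least 1.5-fold with a false discovery rate under 0.001, and Tat and Ttr within 1.5-fold. In bulk tissue, fewer cells of a type and less RNA per cell cannot be told apart.

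Glycolysis splits glucose into pyruvate, and the liver runs it after meals to feed fat synthesis. Hepatocytes use their own forms of several enzymes: liver pyruvate kinase (Pklr) at the last step and the bifunctional enzyme encoded by Pfkfb1, which makes and removes fructose 2,6-bisphosphate, the signal that opens the phosphofructokinase step. Muscle, brain and other tissues use other forms of glycolytic enzymes, among them the phosphofructokinase of Pfkm and the aldolases of Aldoa and Aldoc. Fructose enters below the phosphofructokinase step through ketohexokinase (Khk). Carbohydrate response element binding protein is a known inducer of Pklr.

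In the standard form of this method the DpnII site nearest to the poly(A) tail is counted, so each transcript gives 1 tag whatever its length. Per the labels, cDNA was primed with random hexamers, and whether tags from other sites were also counted was not tested. The site is GATC, and the 16 bases after it name the gene. The tags below were read from GENCODE M21 transcripts that have a RefSeq mRNA entry, on GRCm38, and are shown because they are the stretch of each mRNA on which its value rests. The deposited values are per gene, so which tags entered each value was not tested, and the tag length was set here at 20 bases. Capitals mark the DpnII site.
Pklr: GATCagaagcaaaaatgaat
Khk: GATCcacattgagggccgga
Pfkfb1: GATCagattgtctctgttct
Pfkm: GATCagctgtggccaggagc
Aldoa: GATCctcttccacgagacac
Aldoc, shorter mRNA: GATCagggggacgtgaactc
Aldoc, longer mRNA: GATCtgtctcaacattaact

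The Pklr tag lay in the 3′ untranslated region in exon 11 of 11, at chr3:89146319-89146338 on the plus strand. It was the same in both annotated mRNAs, which differ in their first exon, so the liver and red cell forms cannot be told apart by it. The Pfkfb1 tag lay in the 3′ untranslated region at chrX:150643636-150643655, and that of Pfkm in the 3′ untranslated region at chr15:98132190-98132209, both on the plus strand. For Aldoc, the tag of the shorter mRNA lay at chr11:78326678-78326697 and that of the longer mRNA at chr11:78327722-78327741, both in the 3′ untranslated region and on the plus strand. The tags of Aldoa and Khk lay in coding sequence. Aldoa, on the minus strand, had its tag at chr7:126797411-126797430, 1048 to 1050 bases before the end of its mRNAs, and 1 of its 3 annotated mRNAs held 2 sites while the others held 1. The Khk tag crossed an exon junction between chr5:30928503 and chr5:30929527 on the plus strand. Each annotated Khk mRNA held this same tag, so the forms of Khk cannot be told apart by it. None of these tags was at a DpnII site in the transcripts of another annotated gene. Of the 3 genes that were not listed, Eno1 had a tag that Eno1b also held, while those of Pgk1 and Ldha were held by 0 other genes.

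In the deposited values Pklr, Khk and Pfkfb1 were each more than 2-fold higher in db/db liver, and Pfkm, Aldoa and Aldoc differed by less than 1.5-fold. A fold change of at least 1.5 was reached in the higher direction by 3 of the 6 genes and in the lower direction by 0, against 34.4% and 15.3% of all listed genes. With a false discovery rate (FDR) under 0.001 required as well, the same 3 genes were higher and 0 were lower, against 22.9% and 8.19% of all listed genes. The FDR is the Benjamini-Hochberg adjusted p, over all listed genes, of an exact binomial test (two-sided) of each gene's tags, and it compares the 2 libraries and not the conditions. The median log2 ratio was 0.72 over the 6 genes and 0.25 over all listed genes.

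Pklr (Entrez 18770), which makes pyruvate and ATP from phosphoenolpyruvate, was at 197 TPM in normal liver and at 526 TPM in db/db liver, from 2027 and 7100 tags. The level in db/db liver was 2.67-fold that in normal liver (95% Clopper-Pearson interval, 2.54 to 2.80). Its log2 ratio of 1.41 exceeded that of about 90.5% of the listed genes, and it moved from rank 282 to rank 127 by level. Khk (Entrez 16548), which phosphorylates fructose, had 2172 tags in normal liver, 211 TPM, and 6499 tags in db/db liver, 481 TPM. Its fold change was 2.28 (95% interval, 2.17 to 2.39) and its log2 ratio of 1.19 lay at percentile 86.1 of all listed genes. Pfkfb1 (Entrez 18639) was at 28.4 TPM in normal liver and at 61.1 TPM in db/db liver, with 292 and 825 tags. Its fold change of 2.15 had a wider interval, 1.88 to 2.47, and its log2 ratio of 1.10 was at percentile 84.3. The exact test FDR was 3.0e-269 for Khk and 4.2e-31 for Pfkfb1. The 95% Poisson intervals of level did not overlap between the libraries for any of these 3 genes, which held in this direction for 33.2% of all listed genes.

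Aldoa (Entrez 11674), the aldolase of muscle and most other tissues, was at 57.5 TPM in normal liver and at 44.2 TPM in db/db liver, from 591 and 597 tags. Its log2 ratio of -0.38 (95% interval, -0.55 to -0.21) lay within 1.5-fold, while the exact test gave an FDR of 2.1e-05. Aldoc (Entrez 11676), the brain form, was at 8.85 TPM and at 6.96 TPM, from 91 and 94 tags. Its log2 ratio was -0.35 with a 95% interval of -0.78 to 0.08, which holds 0 under the deposited scaling. Pfkm (Entrez 18642), the muscle form of phosphofructokinase, was at 10.02 TPM and at 12.73 TPM, from 103 and 172 tags. Its log2 ratio of 0.35 had an interval of -0.02 to 0.71, which also holds 0. Of these 3, the intervals of level lay apart for Aldoa alone, as they did in the lower direction for 13.3% of all listed genes.

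**Figure D1:**
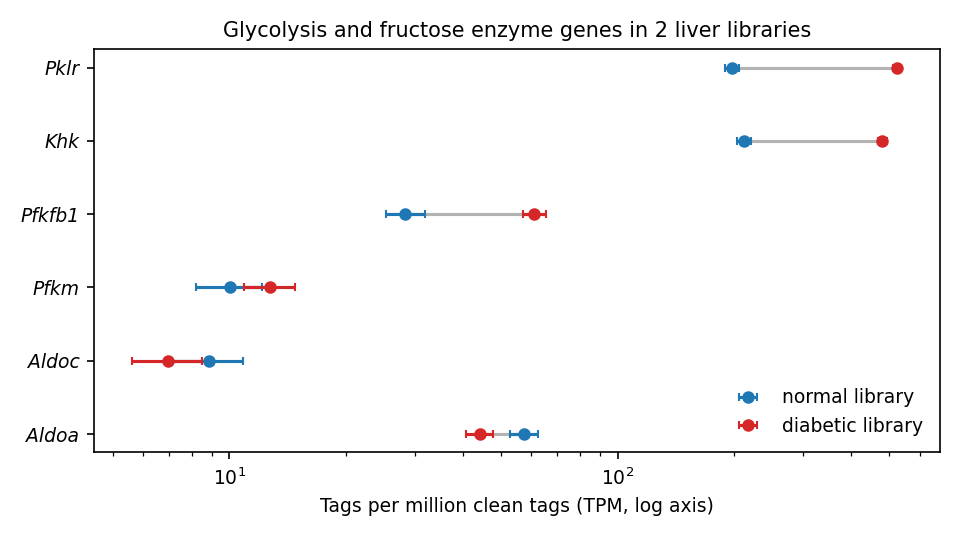
Level of each of the 6 genes in normal liver (blue) and db/db liver (red), in TPM on a log axis. Points are the 1 value per library and bars are exact 95% Poisson intervals, which cover counting error only; Pklr, Khk and Pfkfb1 lie further right in db/db liver, and Aldoa further left.

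The order of the genes by level also differed between the libraries. In normal liver Khk and Pklr came first and their 95% Poisson intervals overlapped, 203 to 220 TPM for Khk and 189 to 206 TPM for Pklr. In db/db liver Pklr came first, with 513 to 538 TPM against 469 to 493 TPM for Khk, and the intervals were apart. Aldoa stood above Pfkfb1 in normal liver and below it in db/db liver. By rank among all listed genes, Aldoa went from 931 to 1361 and Pfkfb1 from 1653 to 1066. The lowest were Pfkm and Aldoc, whose intervals overlapped in normal liver (8.18 to 12.2 and 7.13 to 10.9 TPM) but not in db/db liver (10.9 to 14.8 and 5.62 to 8.52 TPM). Together the 6 genes summed to 513 TPM in normal liver and to 1132 TPM in db/db liver, and most of that sum was Pklr and Khk.

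Deposited values take all clean tags as their base, and 4 other scalings between the libraries lowered each log2 ratio by 0.25 to 0.31. Under each of them Pklr, Khk and Pfkfb1 were still at least 1.5-fold higher. Their fold changes over the 4 scalings were 2.16 to 2.24 for Pklr, 1.84 to 1.91 for Khk and 1.74 to 1.80 for Pfkfb1. Aldoa and Aldoc crossed the 1.5-fold line in the lower direction under all 4 scalings, with log2 ratios of -0.69 to -0.63 for Aldoa and -0.65 to -0.60 for Aldoc, as did 23.6% to 25.6% of all listed genes. The upper end of the Aldoc interval was then -0.22 to -0.17, below 0. For Aldoa the FDR stayed under 0.001 in each, and for Aldoc it did not. Pfkm came close to equal, with log2 ratios of 0.04 to 0.09. Over all listed genes, 69.2% of those past 1.5-fold were higher under the deposited scaling and between 46.1% and 50.4% under the others.

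**Figure D2:**
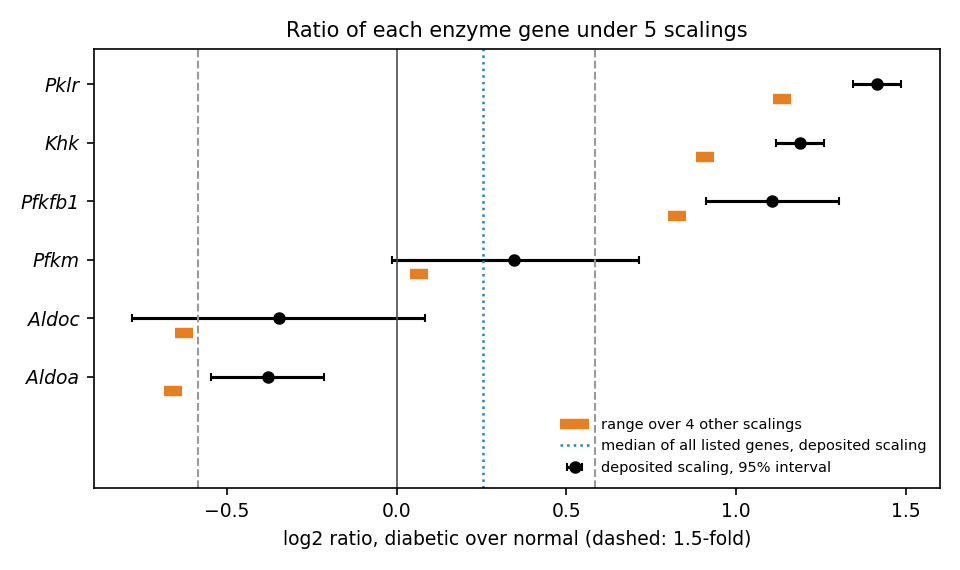
Ratio of db/db to normal liver for each of the 6 genes on the log2 scale. Black points and bars are the deposited scaling with its 95% Clopper-Pearson interval, orange bars span 4 other scalings, dashed lines mark 1.5-fold and the dotted line the median of all listed genes, 0.25; Pklr, Khk and Pfkfb1 stay right of the upper dashed line, and Aldoa and Aldoc cross the lower one under the other scalings.

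The ratio of 2 genes within a library does not depend on the scaling. All 15 pairs of the 6 genes were compared between the libraries with a two-sided Fisher exact test on the tags, adjusted by Benjamini-Hochberg over the 15 pairs, which again compares libraries. In 13 of 15 pairs the adjusted p was under 0.05. The 15 pairs reuse the same 6 genes and are not independent. The share for pairs drawn from all listed genes was not computed, so whether this count is particular to these genes was not tested. Pklr was at 3.43 times the level of Aldoa in normal liver and at 11.9 times its level in db/db liver, a difference of log2 ratios of 1.79 (95% exact interval, 1.61 to 1.98). Against Aldoa the difference was 1.57 for Khk (1.39 to 1.75), 1.48 for Pfkfb1 (1.23 to 1.74) and 0.72 for Pfkm (0.33 to 1.13). Pklr also exceeded Khk, by 0.23 (0.13 to 0.33, adjusted exact p = 1.4e-05), and Pfkfb1, by 0.31 (0.10 to 0.52, adjusted exact p = 0.0044). The 2 remaining pairs had intervals around 0. Khk and Pfkfb1 differed by 0.08 (-0.13 to 0.29, adjusted exact p = 0.47), and Aldoc and Aldoa by 0.03 (-0.43 to 0.50, adjusted exact p = 0.94).

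The isoforms of an enzyme can be compared within a library in the same way. Pyruvate kinase tags came almost wholly from Pklr. Pkm2 (Entrez 18746), the muscle and broadly used pyruvate kinase gene now called Pkm, had 50 tags in normal liver and 101 in db/db liver. Its level was 4.86 TPM and 7.48 TPM, and its log2 ratio of 0.62 had an interval of 0.12 to 1.14 with an exact test FDR of 0.026. Under each of the 4 other scalings that interval held 0. Its share of pyruvate kinase tags was 2.41% (95% Wilson interval, 1.83% to 3.16%) in normal liver and 1.40% (1.16% to 1.70%) in db/db liver. Relative to Pkm2, Pklr was higher by a difference of log2 ratios of 0.79 (95% exact interval, 0.27 to 1.30).

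Pfkfb1 was the main listed gene of its family in both libraries. Pfkfb2, the heart form, was at 1.65 TPM in normal liver and at 1.63 TPM in db/db liver, from 17 and 22 tags. Pfkfb3, a broadly inducible form, was at 1.85 TPM and at 1.41 TPM, from 19 tags in each library. Their log2 ratios of -0.02 (-1.0 to 0.98) and -0.39 (-1.39 to 0.60) were too imprecise to show a difference. Relative to Pfkfb2 and Pfkfb3, Pfkfb1 was higher by differences of log2 ratios of 1.13 (95% exact interval, 0.10 to 2.13) and 1.5 (0.48 to 2.52). Over the 3 isoform pairs tested with Fisher's exact test, the adjusted p was 0.0035 for Pklr and Pkm2, 0.025 for Pfkfb1 and Pfkfb2 and 0.0035 for Pfkfb1 and Pfkfb3.

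Of 34 other symbols of glucose entry, glycolysis, lactate and fructose metabolism, 19 were listed. Among these 19, 8 were at least 1.5-fold higher and 1 was at least 1.5-fold lower, against 34.4% and 15.3% of all listed genes. With an FDR under 0.001 as well, 5 were higher and 1 was lower, against 22.9% and 8.19%, and the median log2 ratio of the 19 was 0.32. Under each of the 4 other scalings 4 were higher and 3 were lower, against 21.9% to 24.0% and 23.6% to 25.6% of all listed genes. Slc2a2 (Entrez 20526), the glucose transporter of hepatocytes, had the highest log2 ratio, 1.64 (95% interval, 1.53 to 1.75), at 77.6 TPM in normal liver and 242 TPM in db/db liver. Ldhd (Entrez 52815), which oxidizes D-lactate in mitochondria, was at 41.1 TPM and at 111 TPM, a log2 ratio of 1.43 (1.28 to 1.59). Dak, Gckr and Pgam1 also passed both criteria, with log2 ratios of 0.81, 0.80 and 0.77. Under each of the 4 other scalings these genes were within 1.5-fold, with log2 ratios of 0.47 to 0.56. Slc2a1, the broadly used glucose transporter, was at 2.92 TPM and at 5.70 TPM, with 30 and 77 tags and an exact test FDR of 0.0039. Mlxipl, the gene of carbohydrate response element binding protein, was at 144 TPM in normal liver and at 177 TPM in db/db liver. Its log2 ratio of 0.29 (95% interval, 0.20 to 0.39) was within 1.5-fold, and was -0.01 to 0.04 over the 4 other scalings. Its part in the level of Pklr was not tested.

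At the other end of that list was Hk3 (Entrez 212032), a hexokinase of blood cells, with 31 tags in normal liver and 12 in db/db liver. Its log2 ratio was -1.76 (95% interval, -2.86 to -0.76). Akr1b3, the aldose reductase that opens the polyol route from glucose to fructose, was at 5.45 TPM and at 4.29 TPM, a log2 ratio of -0.35 (-0.90 to 0.21), whose interval lay below 0 under each of the 4 other scalings. Sord (Entrez 20322), which completes that route by making fructose from sorbitol, was the most abundant of the 25 listed genes in both libraries, at 927 TPM and at 995 TPM. Its log2 ratio of 0.10 (0.06 to 0.14) was within 1.5-fold, below the median of all listed genes, and below 0 under each of the 4 scalings. Eno3, the muscle enolase, had 13 and 33 tags and a log2 ratio of 0.95 with an interval of -0.01 to 2.00.

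**Figure D3:**
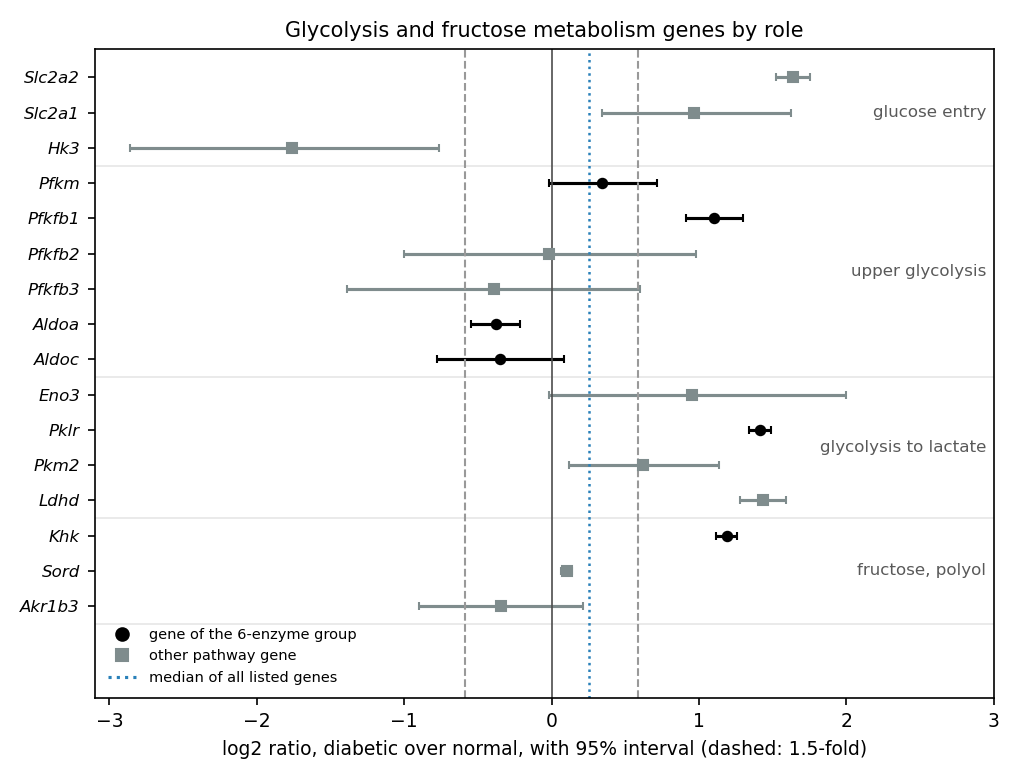
Log2 ratio of db/db to normal liver for the 6 genes (black circles) and for 10 other genes of the pathway (grey squares). Bars are 95% Clopper-Pearson intervals that cover counting error only, and genes are grouped by role. Dashed lines mark 1.5-fold and the dotted line the median of all listed genes, 0.25; Slc2a2, Pklr, Ldhd, Khk and Pfkfb1 lie right of the upper dashed line with their whole intervals, and Hk3 is the only one with its whole interval left of the lower line.

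The promoters of the 9 genes named at the start were searched on both strands for 3 motifs. The RefSeq windows of GRCm38.p6 ran from 250 bases before to 50 bases after each annotated start. The motifs were the half-sites CACGNG and CNCGTG separated by 5 bases, the layout of a carbohydrate response element, then CACGTG, an E-box, and ACGTG, which every CACGTG also holds. Matches were found in 0.0457%, 7.15% and 19.6% of all 32851 windows. Pklr has 2 annotated starts, and the downstream window held the paired half-sites, beginning 170 bases before the start, while the upstream window held none of the 3 motifs. Khk had 1 window, with 1 CACGTG match beginning 71 bases before the start. The 4 windows of Pfkfb1 held none of the 3 motifs. Of the genes that were not higher, 1 of the 4 Pfkm windows held a CACGTG match, and in the Aldoa and Aldoc windows only ACGTG was found. Among the genes without a value, 1 of the 2 Ldha windows held 2 CACGTG and 5 ACGTG matches. The Pgk1 window held 2 ACGTG matches, and the Eno1 windows held none of the 3 motifs. The matched windows of Pklr and Khk lie on the plus strand, at chr3:89136373-89136672 for Pklr and at chr5:30921309-30921608 for Khk. They are shown because these are the 2 most abundant genes of the group, with the motif in capitals.
Pklr, downstream start: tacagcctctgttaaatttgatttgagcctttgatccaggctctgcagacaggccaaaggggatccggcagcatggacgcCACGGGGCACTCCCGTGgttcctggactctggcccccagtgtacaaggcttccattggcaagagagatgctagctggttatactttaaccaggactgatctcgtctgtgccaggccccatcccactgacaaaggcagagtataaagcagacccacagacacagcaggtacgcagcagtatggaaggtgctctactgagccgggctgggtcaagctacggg
Khk: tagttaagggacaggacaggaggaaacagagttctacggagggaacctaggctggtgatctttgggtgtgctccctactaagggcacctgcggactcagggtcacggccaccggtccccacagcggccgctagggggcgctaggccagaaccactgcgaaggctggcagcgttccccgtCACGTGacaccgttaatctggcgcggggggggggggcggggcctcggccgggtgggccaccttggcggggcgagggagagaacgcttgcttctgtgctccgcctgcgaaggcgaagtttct

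A match describes the letters only, and binding and the use of each start were not tested. Pklr is a known target of carbohydrate response element binding protein, so the paired half-sites there are not an independent find. Looser forms of the half-sites were not searched. The Pklr window held neither CACGTG nor ACGTG.

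Markers of other liver cells also differed between the libraries, and their part in the levels of the broadly used isoforms was not tested. Of 7 macrophage markers 6 were listed, with summed levels of 105 TPM in normal liver and 84.0 TPM in db/db liver. Most of that sum was Cd5l, at 64.7 and 62.9 TPM. The other 5 summed to 40.28 and 21.03 TPM, a split made after these values were seen. Of the 6 listed macrophage markers 3 were at least 1.5-fold lower, against 15.3% of all listed genes. With an FDR under 0.001 as well, 2 were lower, against 8.19%. The endothelial list, 6 of 6 listed, summed to 103 and 92.2 TPM, with log2 ratios from -0.64 for Clec4g to 0.89 for Kdr. The stellate cell list, 5 of 6 listed, summed to 58.3 and 71.7 TPM, with log2 ratios from -0.85 for Reln to 1.6 for Col1a1. Cholangiocyte markers summed to 61.5 and 107 TPM with 3 of 5 listed, Krt19 and Sox9 not among them. That difference was in Spp1, at 57.2 and 103 TPM, while Epcam (log2 ratio -0.08) and Krt7 (0.14) were within 1.5-fold. Of 9 lymphocyte markers 2 were listed, at 5.35 and 3.77 TPM in sum. From the blood cell and platelet list 2 of 5 were listed, at 52.1 and 46.4 TPM. From the nerve and glia list 1 of 4 was listed, Mbp, at 103 and 74.9 TPM. None of 5 muscle markers was listed, Ckm and Acta1 included.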

How the data were processed

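Liver mRNA of 1 normal and 1 diabetic library was profiled. Per the labels and methods, poly(A) RNA was reverse transcribed, the cDNA was digested with DpnII and tag libraries were sequenced on an Illumina 1G sequencer. The authors removed adaptors, compared clean tags with RefSeq and deposited RPM values, called TPM, for genes whose mean reached 1 TPM, with 0.01 in place of 0. The submitters' processing notes name mm9. The aligner and the treatment of tags common to several genes are not given in the sources used here.

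Whole tags were computed from the steps of the values. Within rounding to 2 decimals, 0 of 8513 values above 0.01 were not whole in the normal library, and 1 of 8537 in the diabetic library. Ratios are of deposited values. Intervals (95%) and exact tests use tags, which carry no molecular identifier and so are not independent molecules, and they cover counting error only. Fisher tests and shares also use tags. A change means at least 1.5-fold, with an FDR under 0.001 where stated. Alternatives were 4 scalings (sum of listed genes, TMM trimming 30% of log ratios and 5% of abundances, median ratio over genes of at least 10 TPM, upper quartile), a 2-fold threshold, a minimum mean of 5 TPM and pseudocounts of 0.1 and 1 TPM. The number of per-sample columns not used was 0.

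The genes and lists were chosen with earlier results of these data known. Other pathway genes are named if they encode another isoform of an enzyme of the group or are among the 3 highest or 3 lowest ratios of the rest. Mlxipl is named as well because its protein is a known inducer of Pklr. Dak, Gckr and Pgam1 are named because they passed both criteria, a choice made after their values were seen. An item of this pathway is not reported here, and the comparisons that need it were left out. With 2 libraries a pattern is 1 ratio, so no gene was named for likeness. Tags and promoters came from GENCODE M21 and RefSeq on GRCm38, whose build differs from mm9, and all 9 symbols matched. The computation was tested on simulated data. Scripts ran on Python 3.11.15 with pandas 2.3.3, scipy 1.17.1, numpy 2.4.6 and, for figures, matplotlib 3.10.9.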

Additional observations from a re-analysis of the deposited data

How the results depend on the processing

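Under the 7 alternatives that give ratios the log2 ratio of each of the 6 genes kept its sign. Pklr, Khk and Pfkfb1 passed both the 1.5-fold and the FDR criterion as higher in every one. At a threshold of 2-fold all 3 were still counted under the deposited scaling. Under the 4 other scalings the highest fold change was 1.91 for Khk and 1.80 for Pfkfb1. With scaling by the listed genes' sum, TMM, median ratio and upper quartile, 2 of the 6 genes were at least 1.5-fold lower in place of 0, since these scalings lower every ratio. The median log2 ratio of the 6 genes was then 0.47, 0.47, 0.42 and 0.46 in that order, and 2044, 2022, 2189 and 2076 listed genes were at least 1.5-fold lower in place of 1310. Median-ratio scaling left 1874 listed genes at least 1.5-fold higher, against 2941. Of the other pathway genes 4 were higher and 3 lower under each scaling. A minimum mean of 5 TPM left 1773 listed genes higher and 658 lower, and 0 other pathway genes lower, and a 2-fold threshold left 1589, 582 and 2 other pathway genes higher, by construction. Pseudocounts changed no count by more than 1.5 times. Depth limits Pfkm, Pfkfb2, Pfkfb3 and Eno3, whose intervals hold 0 under all 5 scalings, while those of Aldoc and Akr1b3 hold 0 under the deposited scaling only. No paired analysis was possible because each group has 1 library.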

Other observations

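Among listed genes with an annotated RefSeq mRNA, 4.49% had a 20-base DpnII tag that another annotated gene also held, against 16.6% of the genes that were not listed. Without a DpnII site were 0.0742% of the listed and 2.90% of the other genes. Whether such tags were left out of the table was not tested, and Pgk1 and Ldha, which were not listed, had sites and tags of their own.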
